A study of Mus musculus with 54 samples.

Results

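Cfd, Adipoq, Plin1, Retn, Cidec and Lep, 6 genes with fat cells as a main site of expression, were followed through a study that compared ways to prepare mouse kidney for RNA sequencing. They were taken by name, as 6 of the 33126 distinct genes listed in the 54 libraries, which were 39 10x libraries of cells or nuclei and 15 bulk libraries in 18 conditions of 3 libraries each. The mice of the first experiment were C57BL/6J AFAPIL.1DEL males of 19 weeks from the same litter, whose kidneys were dissociated in the cold or at 37 °C and used fresh, cryopreserved or fixed in methanol, with bulk libraries of the fresh cold and warm suspensions. The second experiment used Balb/c males of 18 weeks from the same litter, with fresh cold cells, nuclei after 3 washes at 500 g with sorting (3x500g) and bulk libraries of intact kidney. The third used Balb/c females of 15 weeks that had been breeders, with fresh and cryopreserved cold cells and nuclei prepared by 3x500g, by 1 wash at 2000 g with sorting (1x2000g) or by a sucrose gradient. Its bulk libraries were of intact kidney and of the cold suspension. The 10x chemistry was version 2 for C57BL/6J and male Balb/c mice and version 3 for the females. All mice were untreated, and all samples were labelled as adult whole kidney. The capsule was removed from every kidney, also from those flash-frozen intact, and no label or method names fat around the kidney, so the tissue from which the RNA of these genes came was not tested. Per the methods each condition used kidneys of 3 different mice, and the labels do not tie libraries of different conditions to the same mouse.

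Fat cells store triglyceride in lipid droplets and secrete hormones called adipokines. Adipoq encodes adiponectin and Lep encodes leptin, which are hormones acting on metabolism and appetite. Retn encodes resistin, also an adipokine, and Cfd encodes adipsin (complement factor D), the protease that starts the alternative complement pathway. Plin1 encodes perilipin 1, which coats the droplet and controls access of lipases, and Cidec encodes a droplet protein that acts in droplet fusion and growth. White fat lies around the kidney and at its hilum, and brown fat, which burns fuel for heat through the uncoupling protein Ucp1, is also known near the renal hilum of mice. Kidney epithelium is not a known main site of these 6 genes, but it does respond to adiponectin and leptin through their receptors.

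The genes are protein coding and lie on 5 chromosomes in GRCm38. Cfd spans 10:79890853-79892655 on the plus strand, Adipoq 16:23146536-23158028 on the plus strand and Plin1 7:79720218-79732903 on the minus strand. Retn lies at 8:3655770-3660110 on the plus strand, and chromosome 6 holds both Lep (6:29060220-29073877, plus strand) and Cidec (6:113424634-113435760, minus strand). The promoters of Adipoq, Lep and Plin1 are shown as RefSeq gives them for GRCm38.p6 (chr16:23146286-23146585, chr6:29059971-29060270 and chr7:79732727-79733026), because Adipoq sets the reference pattern for the search of like genes given further on and the other two differ from it in the motifs held. Each line runs 5′ to 3′ on the strand of the gene, from 250 bases before to 50 bases after the start, and capitals mark TTGCNNAA, a simplified form of the site bound by C/EBP factors of fat cells, or CCAAT, each on either strand.
Adipoq: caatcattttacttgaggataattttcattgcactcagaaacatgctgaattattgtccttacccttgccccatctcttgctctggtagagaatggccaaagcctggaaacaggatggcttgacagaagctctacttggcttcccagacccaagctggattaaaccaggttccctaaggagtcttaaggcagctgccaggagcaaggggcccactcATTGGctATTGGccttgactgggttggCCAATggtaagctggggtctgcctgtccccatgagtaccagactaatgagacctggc
Lep: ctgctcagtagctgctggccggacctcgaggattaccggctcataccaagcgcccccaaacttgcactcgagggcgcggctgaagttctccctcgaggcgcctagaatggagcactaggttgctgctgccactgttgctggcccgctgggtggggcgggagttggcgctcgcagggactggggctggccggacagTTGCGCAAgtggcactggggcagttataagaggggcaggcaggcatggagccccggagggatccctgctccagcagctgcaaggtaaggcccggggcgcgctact
Plin1: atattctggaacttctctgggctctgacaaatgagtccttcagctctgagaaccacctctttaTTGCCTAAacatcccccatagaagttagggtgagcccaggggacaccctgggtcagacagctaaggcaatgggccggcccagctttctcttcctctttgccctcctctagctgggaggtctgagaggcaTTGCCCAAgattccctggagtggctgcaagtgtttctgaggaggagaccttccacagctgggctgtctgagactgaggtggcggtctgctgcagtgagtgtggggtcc
TTGCNNAA occurred in the promoters of 3 of the 6 genes (Lep, Plin1 and 1 of 2 starts of Cidec), and in 12.2% of the 27025 genes with a promoter in the table. CCAAT occurred in 1 of 6 (Adipoq, 3 times), against 41.1% of all genes, and neither AGGTCA (18.1% of genes) nor TATAAA (15.7%) was found in the 6. A match is a description of the letters only.

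The 6 genes were low in all 15 bulk libraries, and most of their reads came from the 6 libraries of intact kidney. Bulk totals were 5969212 to 8184923 reads in the C57BL/6J suspensions, 2326998 to 7879117 in male intact kidney, 29097780 to 31093949 in female intact kidney and 21984996 to 26295983 in the female suspension. The summed level of the 6 genes, in CPM (the standard scaling of a gene's reads to the total reads of its library), was 12.9, 14.2 and 22.7 in the 3 libraries of male intact kidney and 13.3, 0.97 and 2.96 in those of female intact kidney. It was 0.0423 to 0.182 in the female suspension, 0.335 to 0.476 in the cold C57BL/6J suspension and 0.649 to 1.16 in the warm one. Each intact library thus lay above all 9 suspension libraries, except that female intact replicate 2 lay within the range of the warm suspension. The male intact libraries have no suspension of their own experiment. The suspensions they are set against differ from them in strain or sex, and in age, batch and read length. The female suspension also differs from them in library preparation. In bulk samples, fewer fat cells and less RNA per fat cell cannot be told apart.

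**Figure D1:**
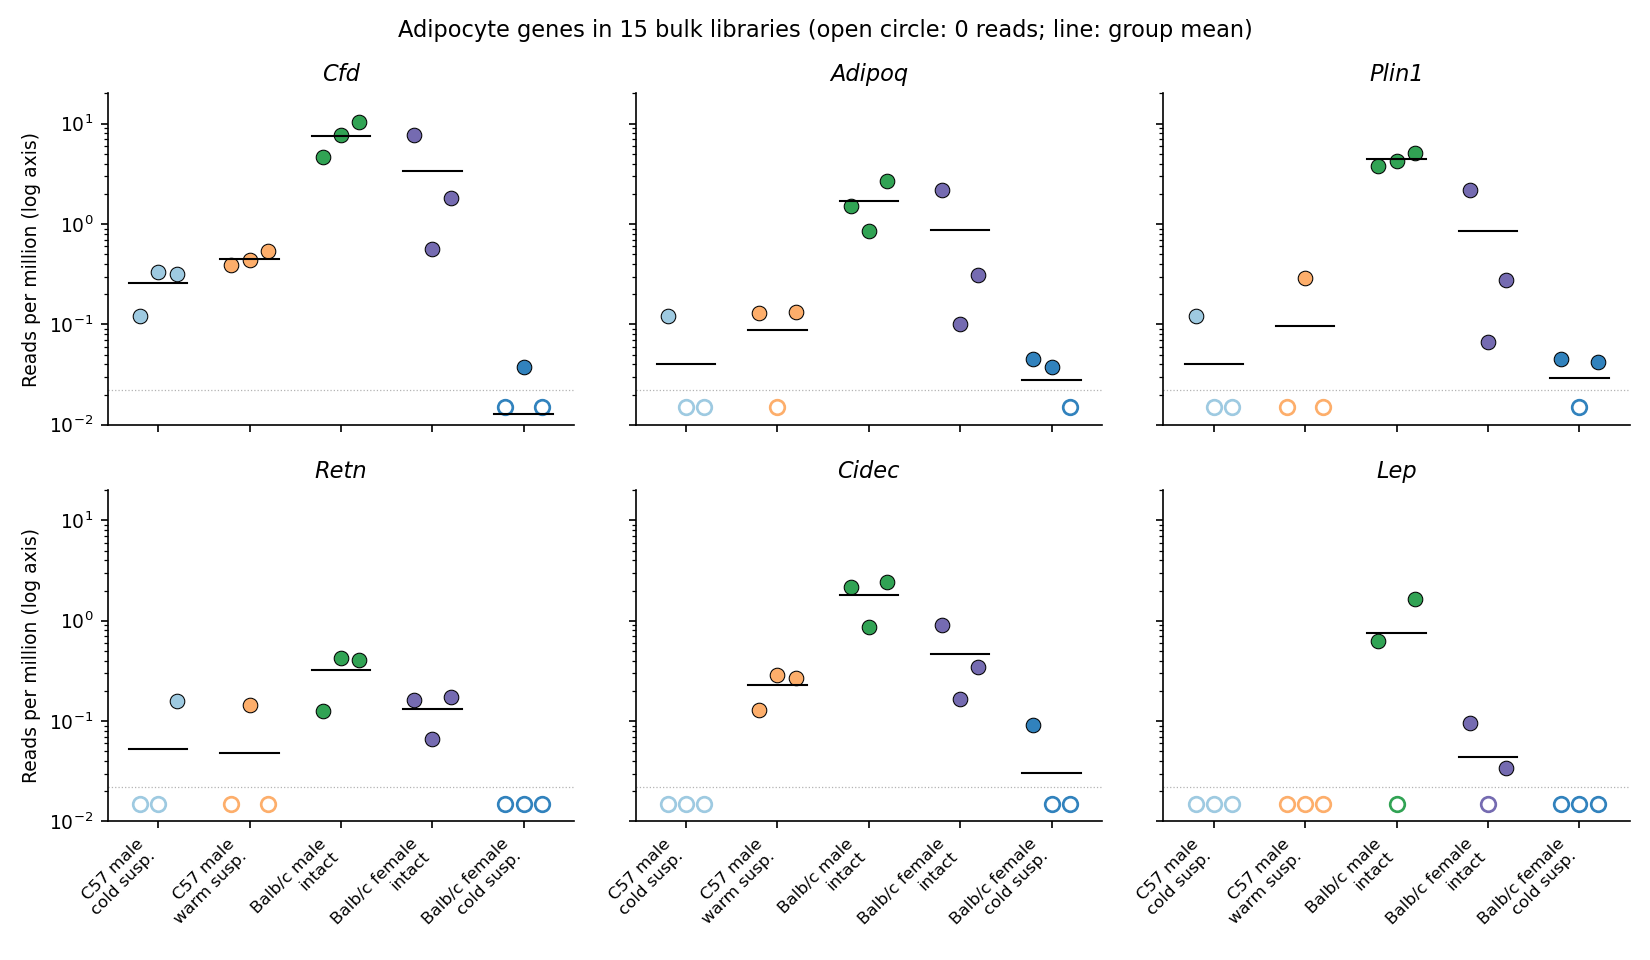
CPM (log axis) of each adipocyte gene in 15 bulk libraries, 1 point per library, with open circles for 0 reads drawn below the dotted line and a line at the mean of each group of 3. The male intact libraries are high for Cfd and Plin1, the female intact libraries spread widely with replicate 1 on top, and the female suspension holds at most 2 reads of any gene in a library.

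Cfd was the most abundant of the secreted members. It had 37, 18 and 51 reads in male intact kidney (4.70, 7.74 and 10.4 CPM), and 242, 17 and 53 reads in female intact kidney (7.78, 0.568 and 1.82 CPM). The female suspension had 0, 1 and 0 reads, at totals of 21984996 to 26295983. Replicate 1 of female intact kidney therefore held most of the Cfd reads of its group, while its lowest library was still above each library of the suspension.

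Adipoq had 12, 2 and 13 reads in male intact kidney and 68, 3 and 9 in female intact kidney. In the female suspension it had 1, 1 and 0 reads. The order of the 3 female libraries was the same as for Cfd, with replicate 1 highest and replicate 2 lowest. Retn had 1, 1 and 2 reads in male and 5, 2 and 5 in female intact kidney, and Lep had 5, 0 and 8 in male and 3, 0 and 1 in female intact kidney. Neither gene had a read in the female suspension. Lep, the hormone that white fat secretes in proportion to its mass, was thus at 0 in 1 library of each intact group and in all 9 suspension libraries.

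Of the droplet proteins, Plin1 had 30, 10 and 25 reads in male intact kidney, or 3.81, 4.30 and 5.11 CPM. Female intact kidney had 68, 2 and 8 reads of Plin1, and its suspension 1, 0 and 1. Cidec had 17, 2 and 12 reads in male and 28, 5 and 10 in female intact kidney, against 2, 0 and 0 in the suspension. Plin1 lay closer together in the male libraries than in the female ones. Cidec had a wider range in CPM in the male libraries (0.859 to 2.45) than in the female ones (0.167 to 0.9005).

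Levels can be set between genes only per length. In male intact kidney, mean CPM per kilobase of exon was 8.27 ± 3.11 (SD, n = 3) for Cfd, 1.22 ± 0.659 for Adipoq, 0.983 ± 0.457 for Cidec, 0.948 ± 0.142 for Plin1, 0.226 ± 0.246 for Lep and 0.204 ± 0.107 for Retn. Adipoq, Cidec and Plin1 overlapped between libraries, as did Lep and Retn, while every library had more Cfd than any had of the rest. In female intact kidney Cfd was again first at 3.68 ± 4.18, followed by Adipoq at 0.627 ± 0.832, Cidec at 0.253 ± 0.206, Plin1 at 0.181 ± 0.251, Retn at 0.0843 ± 0.0365 and Lep at 0.0130 ± 0.0146. Here the SD was larger than the mean for 4 of the 6 genes. Within each library Cfd was above Adipoq, the next gene, while Adipoq and Cidec changed places between libraries, as did Plin1 and Retn.

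The mix of the members also differed between the intact groups. Plin1 gave 29.4%, 30.3% and 22.5% of the reads of the 6 genes in the male libraries and 16.4%, 6.90% and 9.30% in the female ones. Cfd gave 36.3%, 54.5% and 45.9% in male and 58.5%, 58.6% and 61.6% in female libraries. The shares rest on 29 to 414 reads per library. Male and female intact kidneys differ in sex, age, batch, read length and library preparation (depletion of ribosomal RNA for males, poly(A) selection for females). These differences cannot be told apart, and the male and female tables were not tested against each other.

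The only direct test of intact kidney against a cell suspension was in Balb/c females. Of the 6 genes, only Cfd had enough reads to pass edgeR's filter on low counts (filterByExpr), and it was called higher in intact kidney with a log2 fold change of 7.55 ± 1.65 (SE) and an adjusted p of 0.0108 (edgeR's quasi-likelihood test, Benjamini-Hochberg). Over all 16538 genes tested, 12.1% were called higher and 7.91% lower in intact kidney, 1.45% were called higher with a log2 fold change over 2, and the median log2 fold change was -0.00290. Cfd passed the filter only through the intact libraries, where it is high, so the direction of this call was fixed by the filter. As the suspension held 1 read of Cfd, the fold also depends on the prior count of the fit. The pooled reads were 312 against 1, a ratio of 249 with an exact 95% interval of 44.4 to 9871 that covers counting error only. Without female intact replicate 1, which stood apart, the log2 fold change was 6.00 with an adjusted p of 0.00425. Without suspension replicate 2, which held that 1 read, the suspension was at 0, the log2 fold change was 9.55 ± 2.72, the adjusted p was 0.0555 and the call was lost.

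The other members were too low for the filter, and their pooled reads are given as counts. Adipoq had 80 reads in intact kidney and 2 in the suspension, a ratio of 31.9 (8.56 to 268). Plin1 had 78 against 2, a ratio of 31.1 (8.34 to 262), and Cidec 43 against 2, a ratio of 17.2 (4.47 to 146). Retn had 12 against 0, a ratio of 3.19 to a floor of 3 reads over the group. Lep had 4 against 0, a ratio of 1.065 to that floor. Ratios to the floor leave out the counting error of the intact reads, so they are not lower bounds. Most of the reads of Cfd, Adipoq, Plin1 and Cidec came from intact replicate 1. Without it, a choice made after the data were seen, the ratio was 85.4 for Cfd (14.8 to 3419) and 7.32 for Adipoq (1.63 to 67.3). It was 6.10 for Plin1 (1.30 to 57.2) and 9.14 for Cidec (2.13 to 82.4). The ratio of Retn to the floor was then 2.85, and Lep had 1 read. In every one of Adipoq, Plin1, Cidec and Retn the lowest intact library lay above the highest suspension library, as for Cfd, whereas Lep overlapped at 0. That lowest library held only 3 reads of Adipoq, 2 of Plin1 and 2 of Retn, so the separation of these genes rests on very few reads. Among the genes tested, 19.9% did not overlap in this direction, but those had passed the filter, unlike Adipoq, Plin1, Cidec and Retn. With no filter on low counts all 6 genes were tested and 5 were called higher, with adjusted p-values of 0.000528 (Cfd), 0.00950 (Cidec), 0.0146 (Adipoq), 0.0205 (Plin1) and 0.0401 (Retn), while that of Lep was 0.352 (edgeR). In that fit 7.01% of all 29071 genes were called higher, a share that also counts the genes below the filter. The 5 calls rest on at most 2 reads of each gene in the suspension, and on 0 for Retn. A call in the lower direction was thus not possible for them. The 6 genes were also chosen with earlier results of these data known.

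In the C57BL/6J suspensions none of the 6 genes passed the filter, so none was tested in warm against cold dissociation, where 5.42% of genes were called higher and 3.26% lower. Cfd had 1, 2 and 2 reads in cold and 3, 3 and 4 reads in warm suspensions. The groups did not overlap in CPM (0.122 to 0.335 against 0.389 to 0.536), as was the case in this direction for 14% of the genes tested, but with no filter its adjusted p was 0.689 (edgeR). Cidec had no read in the cold and 1, 2 and 2 in the warm libraries, with an adjusted p of 0.265 in that fit. No other member had more than 2 reads in a library, and Lep had 0 in all 6. The summed level of the 6 genes was 0.335 to 0.476 CPM in cold and 0.649 to 1.16 in warm libraries.

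Genes that act with the members were looked at in the same female comparison, where 12.1% of all genes were called higher and 7.91% lower. Of a list of 16 further genes of fat cells, 9 were tested, 4 were called higher and 0 lower, with a median log2 fold change of 0.63 against -0.00290 over all genes. Car3, a carbonic anhydrase abundant in fat, had 14.1, 0.803 and 2.13 CPM in intact kidney and 0.455, 0.304 and 0.169 in the suspension, with a log2 fold change of 4.23 ± 1.17 and an adjusted p of 0.0308. Its libraries took the same order as those of Cfd. Like Cfd, Car3 had too few reads in the suspension (10, 8 and 4) and passed the filter through the intact libraries, so the direction of its call was fixed as well. Adcy10, a soluble adenylyl cyclase for which fat is not the main site and which the kidney also uses, rose by 2.12 ± 0.375 (adjusted p 0.00359), Lgals12 by 1.45 ± 0.202 (0.000897) and Fabp4, a fatty acid carrier also found in endothelium, by 1.00 ± 0.0666 (1.0226e-05). Pparg, the master regulator of fat cells, had a log2 fold change of 0.63 ± 0.219 and an adjusted p of 0.0756. Adig, the first gene of the list, was below the filter with 15, 3 and 4 reads against 2, 2 and 0. The summed level of the list was 94.6 to 121 CPM in intact kidney and 62.5 to 69.6 in the suspension of this experiment. In the C57BL/6J suspensions, which are a separate experiment, it was 91.3 to 140 CPM in cold and 83.6 to 138 in warm libraries, overlapping the female intact range. Genes of other cell types moved with the list in this comparison. Endothelial genes summed to 384 to 433 CPM in intact kidney against 259 to 273, with 4 of 5 called higher, and mesothelium genes to 7.86 to 10.1 against 1.46 to 2.58, with 3 of 3 tested called higher. Their part in the result was not tested.

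Genes of brown fat gave 1 call in 4 tested of 9, for Cox8b (log2 fold change 2.06 ± 0.314, adjusted p 0.00152). Cox8b, a subunit of the respiratory chain, had 9.29, 4.55 and 6.12 CPM in intact kidney against 1.91, 1.06 and 1.90. Ucp1 was under the filter because a single library carried it: 126, 1 and 5 reads in intact kidney against 0, 0 and 1. Cidea had 49, 7 and 12 reads against 6, 5 and 3.

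Metabolic genes that fat shares with kidney moved in both directions. Of 20 such genes, all tested, 7 were called higher and 2 lower, with a median of 0.12. Scd1, a desaturase, rose by 2.98 ± 0.128 (adjusted p 4.8887e-07), Cd36, a fatty acid transporter, by 2.44 ± 0.0751 (6.9978e-08) and Lpl, the lipase of the vessel wall, by 0.51 ± 0.0749 (0.00127). Their 3 intact libraries were close together, unlike those of the members: Cd36 had 163, 154 and 154 CPM. Of 16 droplet genes tested, 2 were called higher and 1 lower, with a median of 0.08. Plin2, the droplet coat of most tissues, had a log2 fold change of -0.22 ± 0.0840 (adjusted p 0.107). Of 9 transcription factors of fat cells tested, 2 were called higher and 1 lower.

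The receptors of the secreted members were read in every female bulk library. Adipor1 and Adipor2, the receptors of adiponectin, had 176 to 177 and 140 to 162 CPM in female intact kidney, and did not pass the test against the suspension, with log2 fold changes of 0.07 ± 0.0446 and 0.08 ± 0.0580 (adjusted p 0.354 and 0.383). Lepr, the leptin receptor, rose in intact kidney by 1.18 ± 0.136 (adjusted p 0.000301), with 7.65, 9.43 and 10.8 CPM against 4.18, 4.15 and 4.06. It was the 1 gene called among 5 receptors and binding partners. In the alternative complement pathway, in which adipsin cuts factor B, 2 of 6 genes tested were called higher and 2 lower. C3 rose by 1.54 ± 0.148 (adjusted p 9.9194e-05), while Cfp and C3ar1, both expressed in myeloid cells, fell by 0.76 and 0.92. Cfb, the substrate of adipsin, had 61.8, 60.2 and 51.7 CPM against 56.9, 58.1 and 51.3, with an adjusted p of 0.582.

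**Figure D2:**
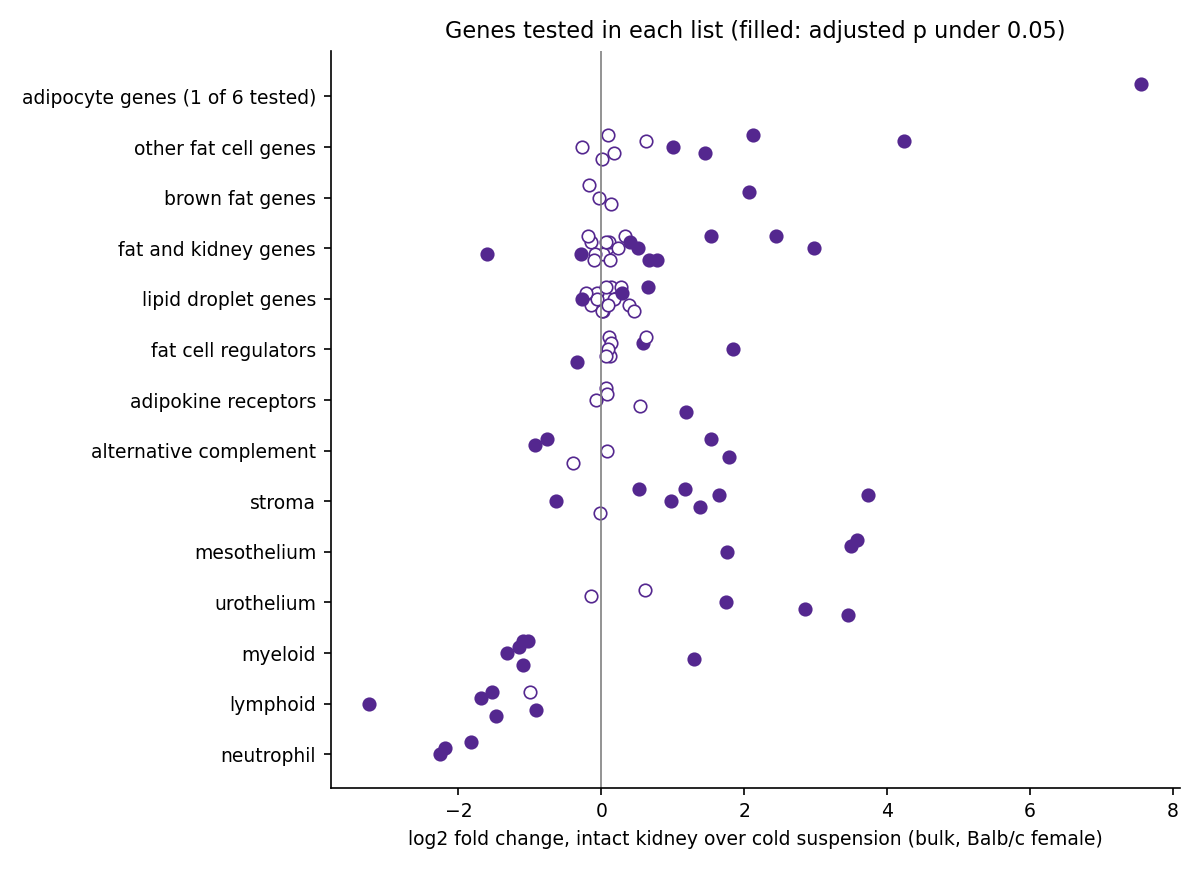
Log2 fold change of every tested gene of 14 lists in bulk libraries of Balb/c female kidney, intact over cold suspension (x axis), with 1 point per gene, filled where the adjusted p was under 0.05. Cfd (7.55) and Car3 (4.23) passed the filter only through the intact libraries and are not to be ranked by size, and most genes that fat shares with kidney lie near 0.

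Lists of other tissues were measured alongside. Connective tissue stroma, which fat also holds, had 6 genes called higher and 1 lower of 8, led by Pdgfra (log2 fold change 3.73 ± 0.175, adjusted p 8.5674e-07). Its summed level was 316 to 324 CPM in intact kidney and 233 to 293 in the suspension. The 3 intact libraries thus lay close together in stroma, while the members' sum ran from 0.97 to 13.3 CPM, and the part of stroma in the members' levels was not tested. Of the adrenal cortex list, whose organ lies in the same fat, 2 of 8 genes were tested and 0 were called (edgeR), with 1 at an unadjusted p under 0.05. None of 5 adrenal medulla genes had enough reads to be tested.

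Across the 15 bulk libraries, the gene whose pattern was most like that of Adipoq was Ucp1. Pearson's r of log2(CPM + 0.5), over 19100 genes with at least 30 reads, was 0.957 for Ucp1 and then 0.942 for Cfd, 0.928 for Cidec and 0.927 for Plin1, which took the first 4 places. Retn and Lep had too few reads to be ranked. The libraries fall into 2 clusters, with the 3 male intact libraries and female intact replicate 1 high and the other 11 low, so r mainly says which 4 libraries are high and is given as a description. Ucp1 had 29, 5 and 15 reads in male intact kidney and at most 1 in each C57BL/6J library. The next genes outside the 6 were 1010001N08Rik, Slc36a2, an amino acid transporter known from brown fat, Nlgn1, Sec14l4, Kcnh1, Slco4c1, Atf7ip2, Slc30a1 and Ppp3cc, with r from 0.916 down to 0.845.

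After the mean of each of the 5 bulk groups was taken off, Ucp1 again came first with r = 0.871, and Cidec (0.839), Cfd (0.831) and Plin1 (0.821) were in the first 8. Others were Abcg2, Cyp2j5, 1010001N08Rik, Tmem132c, Kat2b, Apob, Abcd2, Lrrc8b and Car3, with r from 0.835 to 0.796 over the same 15 libraries. Female intact replicate 1 still stood apart from its group for Adipoq (68, 3 and 9 reads) and Ucp1 (126, 1 and 5 reads). These values of r are thus not independent of the first ones and are given as a description. Tmem132c had 0 to 0.519 CPM over the 15 libraries, and Cyp2j5, a cytochrome P450, 493 to 1228 CPM. Abcg2, a membrane transporter, had 430, 382 and 389 CPM in the female intact libraries, with the same library highest as for the members but a much smaller spread. Car3 had 65.6, 61.0 and 77.7 CPM in male intact kidney, but also 84.9, 74.9 and 26.8 in the cold and 62.4, 15.6 and 74.6 in the warm C57BL/6J suspensions, where the 6 genes summed to at most 1.16 CPM. Its level over the groups thus did not follow theirs.

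**Figure D3:**
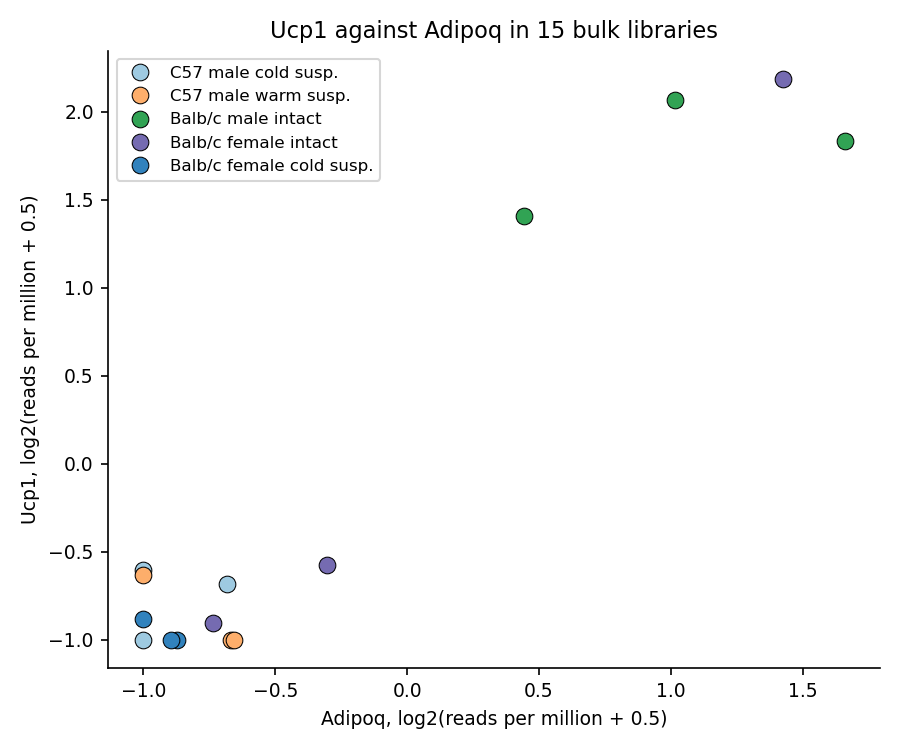
Ucp1 against Adipoq in 15 bulk libraries, both as log2(CPM + 0.5), 1 point per library. The 3 male intact libraries and 1 female intact library lie at the upper right, and the remaining 11 lie at the lower left, where both genes have few or no reads.

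In the 10x data the members appeared in nuclei only. None of the 6 was listed for C57BL/6J or Balb/c female cells, and the male cells list 5 of them, without Lep, at 0 in all 3 libraries. The authors kept only genes detected in at least 10 cells. In the files, 36 libraries list 289 to 6658 genes at 0, while at most 128 genes in a library were seen in 1 to 6 barcodes and at most 724 in 7 to 9. Where the paper sets cells against nuclei, it says that this filter was used per sample. That genes removed from a library are then listed at 0 is an inference from these counts. Members were still listed in as few as 3 barcodes (Cidec). A 0 or an unlisted gene can thus stand for a few barcodes and not for absence, and no limit on the level follows from it. Nuclei libraries held 7629138 to 9390078 UMIs in males and 26142380 to 35170947 in females.

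In male nuclei, replicate 1 stood apart with 85 UMIs of Cfd, 20 of Plin1, 16 of Cidec, 10 of Retn and 8 of Adipoq. Replicate 2 had 21 UMIs of Cfd and none of the rest, and replicate 3 had 20 of Cfd and 6 of Cidec. Cfd was called higher in male nuclei than in male cells (log2 fold change 7.60 ± 2.08, adjusted p 0.0152, edgeR), where 53.6% of all 14027 genes tested were called higher, 55.8% did not overlap in this direction and the median was 0.84. Nuclei counts take in introns and cell counts only exons, and the reference is at 0, which can come from the gene filter. The gene entered the test only through the nuclei, so neither the size nor the direction of this call can be read, and it fell below the filter on low counts when any nuclei library was left out.

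In female nuclei, Cfd had 0, 0 and 9 UMIs after 3x500g. It had 11, 20 and 44 after 1x2000g and 48, 32 and 37 after the sucrose gradient. The sucrose libraries lay above all 3x500g libraries, with a log2 fold change of 3.69 ± 0.870 and an adjusted p of 0.0106, in a comparison where 23.9% of 17304 genes were called higher. Without sucrose replicate 1 the log2 fold change was 3.49 with an adjusted p of 0.0641, and without 3x500g replicate 3, which left the reference at 0, it was 8.34. As 2 of the 3 reference libraries are listed at 0, which can come from the gene filter, and Cfd entered the test only through the sucrose libraries, neither the size nor the direction of this call can be read. For 1x2000g against 3x500g, where 19.5% of genes were called higher, Cfd had a log2 fold change of 2.75 ± 1.15 and an adjusted p of 0.103, with the same limit on the reference. Sucrose against 1x2000g, where 7.87% were called higher, gave 0.95 ± 0.439 and an adjusted p of 0.197.

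Cidec, the only member listed above 0 in all 9 female nuclei libraries, had 11, 13 and 5 UMIs after 3x500g, 18, 15 and 17 after 1x2000g and 16, 14 and 22 after the gradient. Both of the latter groups lay above the first when UMIs were scaled to the library total, as did 27.7% and 30.4% of the genes tested, but neither passed the test (adjusted p 0.364 and 0.178). Plin1 was at 0 in 5 of the 9 female libraries and had 35 and 25 UMIs in replicate 3 of 1x2000g and of sucrose. Its log2 fold change between these groups, 0.59 ± 1.44, turned to -0.22 without sucrose replicate 3. Adipoq was above 0 in a single female library, with 5 UMIs, and neither Retn nor Lep was listed.

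**Figure D4:**
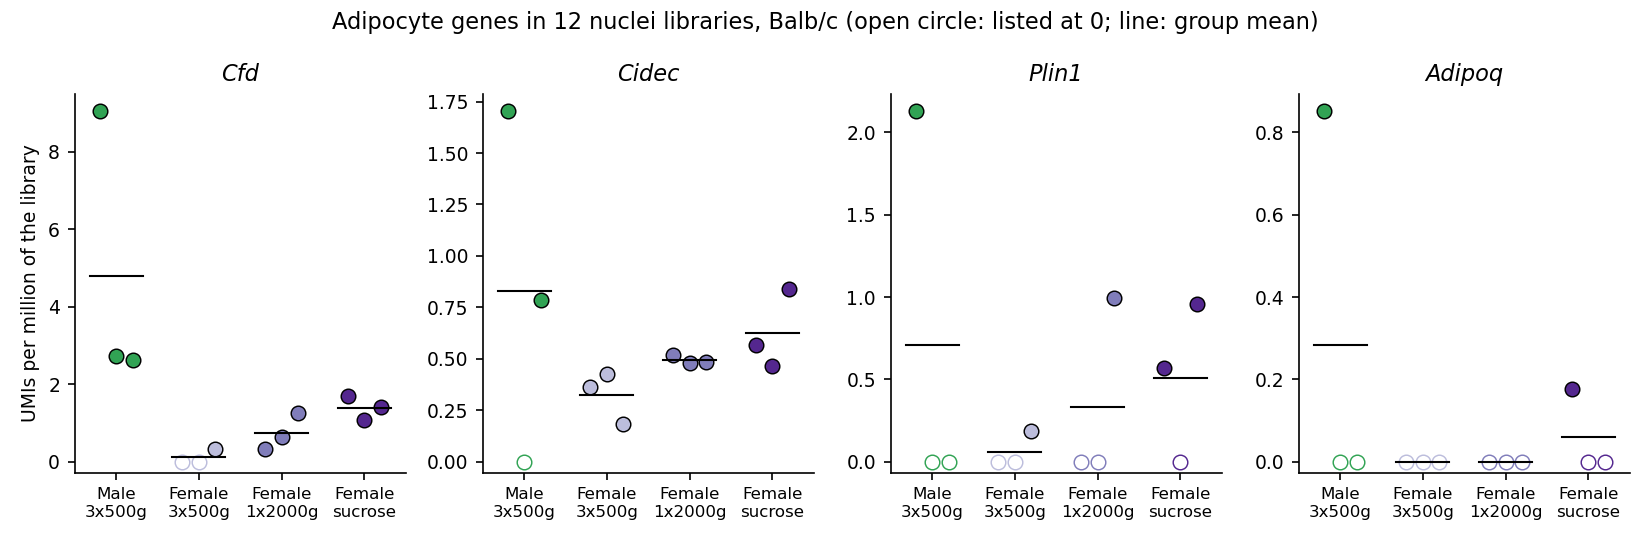
UMIs of Cfd, Cidec, Plin1 and Adipoq, scaled to the UMI total of each library, in the 12 nuclei libraries of Balb/c kidney, 1 point per library on linear axes that start at 0, with a line at the mean of each group of 3 and open circles for a gene listed at 0. Male replicate 1 is highest for each of these genes, and among female groups the mean of Cfd is lowest after 3x500g, although replicate 3 of that group lies above replicate 1 of 1x2000g.

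How the UMIs were spread over barcodes differed between libraries. In sucrose replicate 1, the 48 UMIs of Cfd came from 48 barcodes, none with more than 1, whereas in replicate 3 the 37 UMIs came from 17 barcodes, with up to 9 in 1 barcode. Plin1 in 1x2000g replicate 3 had 35 UMIs in 12 barcodes, with up to 12 in 1. Barcodes in which proximal tubule genes were the leading kidney list, from as few as 3 UMIs, held a UMI of Cfd in 0 to 0.82% of cases over the 12 libraries (44 of 5367 in male replicate 1, median depth 1196 UMIs), and 0.637% (23 of 3612) in sucrose replicate 1. Those led by endothelial genes held it in 0 to 0.893%, at median depths of 678 to 1720 UMIs. These classes still include some of the barcodes with several fat cell genes described next, such as 4 of the 19 with Cfd in 1x2000g replicate 3. Without such barcodes, a choice made after the data were seen, the shares were 0 to 0.764% and 0 to 0.705%. The source of these remaining UMIs was not tested.

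A small number of nuclei barcodes held several members together. Of 98303 nuclei barcodes, 17 had UMIs of at least 2 of the genes and 10 of at least 3. They came from 4 of the 9 libraries in which 2 or more members were above 0, namely 7 from male replicate 1, 5 from 1x2000g replicate 3, 2 from sucrose replicate 2 and 3 from sucrose replicate 3. None was found among 77656 cell barcodes, in which the members are at 0 or unlisted. The largest share was 0.0813% of a library (95% Wilson interval 0.0394 to 0.168, counting error only). Nuclei libraries shared 0 to 1.32% of their barcode sequences in pairs (median 0.174), and no doublet caller was run. Of the members, by which the 17 barcodes were chosen, Cfd was in 16 and Plin1 and Cidec in 13 each. Adipoq, listed at 0 in the female libraries of these barcodes, had 2 UMIs in 2 barcodes. Retn, listed for 7 of the barcodes, had 1 UMI in 1.

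The other genes of these 17 barcodes were not used to choose them, although all genes come from the same nuclei, so they are described with no test. The 16 other fat cell genes, as far as listed, made up 86.3, 156, 118 and 165 of 10000 UMIs in the 4 libraries' chosen barcodes, against 1.37 to 1.76 in the remaining barcodes. Pparg was present in 14 of 17 barcodes with 190 UMIs, Car3 in 14 with 130, Fabp4 in 15 with 127 and Lipe, the hormone-sensitive lipase, in 13 with 59. Other genes of that list were in fewer of the 17, such as Plin4 in 9 and Tshr in 7. Adig, Tusc5 and Cidea were in 5 each, Lgals12 in 3, Mrap in 2 and Adcy10 in 1. Acsl1 was present in 15 with 190 UMIs and Lpl in 15 with 108. Adipor2 was present in 14 barcodes with 100 UMIs. Of genes outside the lists, named here after their values were seen, Slc36a2 had 71 UMIs in 13 barcodes and Prkar2b, a regulatory subunit of protein kinase A, 111 in 13.

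Proximal tubule genes were low in the female barcodes of this kind. Their UMIs of 8 such genes came to 0.091 to 0.168 of the level of the remaining barcodes, against 0.593 in male replicate 1, where 1 barcode held 66 such UMIs. That male barcode had 5244 UMIs in all, and another male one held only 1 UMI each of Cfd and Adipoq and none of the other fat cell genes drawn. Median depth of the chosen barcodes was 1078, 3360, 3165 and 3783 UMIs, near the 1025, 3860, 3109 and 3393 of their libraries. Thick limb genes came to 0 to 0.101 of the level of the remaining barcodes in the 3 female libraries and to 1.33 in male replicate 1, and principal cell genes to 0.317 to 1.82 in the female libraries, on 1 to 4 UMIs each. Myeloid genes had 10 UMIs in the barcodes of sucrose replicate 3. By their leading kidney list, 9 of the 17 were counted with proximal tubule, 3 with thick limb, 1 with principal cells, 1 with myeloid cells and 3 with none. Stroma genes summed to 0 to 2 UMIs per library in the chosen barcodes.

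Ucp1 was seen in some of these barcodes and not in others. All 5 barcodes of 1x2000g replicate 3 held it, with 1 to 14 UMIs each and 38 in all, out of 43 in the whole library. In male replicate 1, 2 of 7 barcodes held it, with 3 UMIs in all. Median depth was 1078 UMIs in these 7 and 3360 in the 5 of 1x2000g replicate 3. The part of depth in this difference was not tested. Ucp1 was listed at 0 in sucrose replicates 2 and 3, where fewer than 10 barcodes may still have carried it, so its absence there cannot be read. Adrb3, the beta-3 adrenergic receptor of fat cells, had 32 UMIs in 7 of the 10 chosen barcodes for which it is listed. Over all barcodes of a library, it had 20 UMIs in 10 barcodes of 1x2000g replicate 3 and 25 in 9 of sucrose replicate 3.

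**Figure D5:**
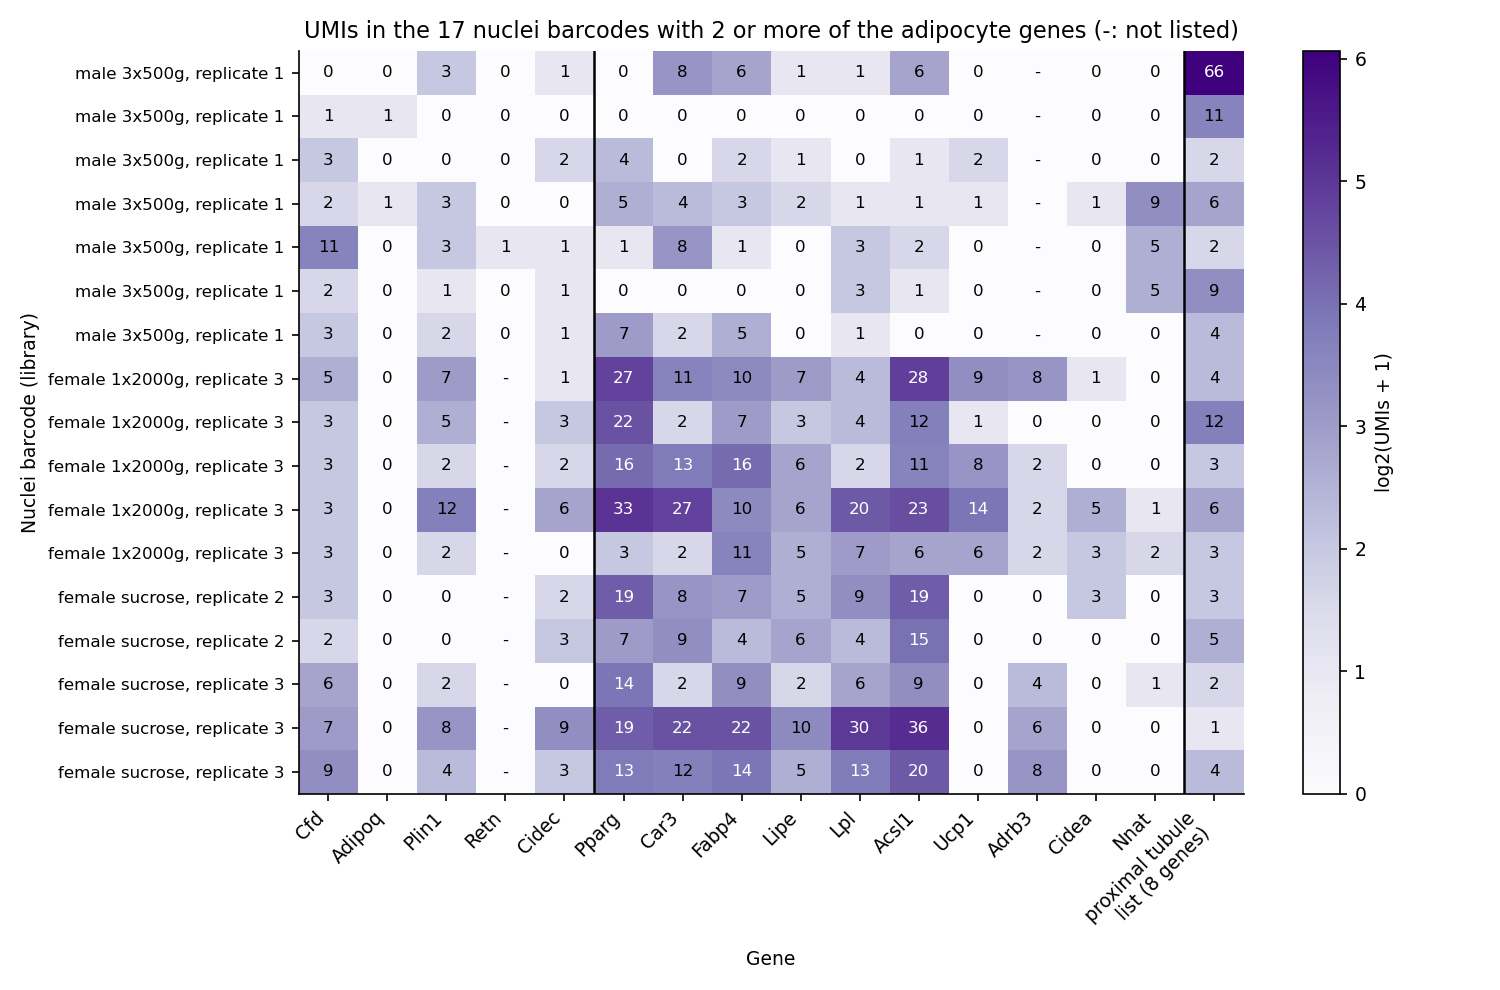
UMI counts in the 17 nuclei barcodes (y axis, by library) that held 2 or more of the adipocyte genes, which are the first 5 columns; further fat cell genes and the sum of 8 proximal tubule genes follow, shaded by log2(UMIs + 1). Pparg, Car3, Fabp4 and Acsl1 are found in most of these barcodes, and Ucp1 in all 5 of 1x2000g replicate 3, while in the sucrose libraries shown it is listed at 0, which can come from the gene filter.

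When barcodes were instead chosen by UMIs of at least 4 of the 16 other fat cell genes, 39 nuclei barcodes were found. This choice does not use the members and was made after the data were seen. Of the 39 nuclei barcodes, 23 held a UMI of a member. Among the 77656 cell barcodes 1 was found, in Balb/c female fresh cells, where no member is listed. C57BL/6J cells list only 4 of the 16 genes and Balb/c female cells 5 to 7, against 14 in male cells and 14 or 15 in nuclei. Numbers found in cells and in nuclei are therefore not compared. The members then made up 39.1 and 26.0 of 10000 UMIs in the chosen barcodes of male replicates 1 and 2, and 13.0, 18.2 and 28.9 in those of 1x2000g replicate 3 and of sucrose replicates 2 and 3, against 0.008 to 0.108 in the remaining barcodes of these 5 libraries. Male replicate 2, where only Cfd was above 0 and no barcode could hold 2 members, had 6 such barcodes, 5 of them with Cfd, and they held 57.1% of the 21 UMIs of Cfd in that library. The chosen barcodes held 23.5% of 85 UMIs of Cfd in male replicate 1 and 38.6% of 44 in 1x2000g replicate 3. In sucrose replicates 2 and 3 they held 53.1% of 32 and 59.5% of 37. In 1x2000g replicates 1 and 2 and sucrose replicate 1, 9 barcodes were chosen in this way and none held a member. The 16 genes came to only 10.7 to 12.7 of 10000 UMIs in these 9, against 77.6 to 158 in the chosen barcodes of the other 5 libraries, and the members' UMIs of these 3 libraries lay outside them.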

How the data were processed

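Bulk libraries of suspensions and intact kidney (15) and 10x libraries of cells and nuclei (39) were analysed from the counts per gene that the authors deposited, as reads in bulk and UMIs per barcode in 10x. For bulk, the authors trimmed reads (Trim Galore), removed ribosomal reads (TagDust2), mapped with STAR 2.6.1a to GRCm38 and counted with featureCounts. Whether counting used strand is not given in the sources used here. For 10x, Cell Ranger 2.1.1 was followed by EmptyDrops and by filters on genes and barcodes, with introns counted for nuclei only.

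The 6 genes and all gene lists were chosen with earlier results of these data known. Some genes are in more than 1 list, so calls of different lists are not all separate. Ucp1, Cidea, Plin4, Lipe and Pparg are among the 16 other fat cell genes and also in the brown fat, droplet or regulator lists. Beyond the 6, the text names the 10 genes most correlated with Adipoq in each of 2 ways, and, per list, up to 4 genes called in the female bulk comparison with an absolute log2 fold change over 2 and the first gene. Some genes that this rule or the lists hold are not reported here. Other genes were named after their values were seen. CPM divides by the total of all listed genes. Comparisons used edgeR 4.0.16 (quasi-likelihood test, TMM, filterByExpr, Benjamini-Hochberg over all genes tested) on bulk counts or on UMIs summed per library, each within 1 experiment. SE is the log2 fold change divided by the square root of F and is unreliable where a group has few counts. DESeq2 1.42.0, the edgeR exact test, RLE size factors, no filter and leaving out libraries were alternatives. Barcodes were not clustered. They were ranked by the marker list with the highest share relative to the library, from at least 3 UMIs. Scripts were tested on simulated data. Intervals cover counting error only, and ratios to a floor have no interval.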

Additional observations from a re-analysis of the deposited data

How the results depend on the processing

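Of the main results under the alternatives, 98 values stayed within 1.5 times of the main count or within 1 SD of the main level and 11 moved. Leaving out 1 of 3 libraries cannot move a mean by 1 SD, so those levels had to count as unmoved. They include female intact kidney, with 13.3, 0.970 and 2.96 CPM in its libraries. A count that stayed at 0 also counted as unmoved. The 98 is thus no measure of stability. Of the values of single genes, 85 kept direction and side of the threshold or stayed within their counting interval, 1 reversed, 1 gained and 2 lost significance, and 2 pooled read ratios (Adipoq and Plin1) fell below their interval without female intact replicate 1. Fits in which a gene fell below the filter gave no value and are not in these counts. In female bulk, 1 member was called, 5 without a filter on low counts (where 7.01% of all genes were called higher), and 0 to 1 when single libraries were left out, with 0 only without suspension replicate 2. The 5 calls without a filter rest on at most 2 suspension reads of each gene, which left no room for a lower call. Of the 4 other fat cell genes called, 2 had a log2 fold change over 2. In male nuclei against cells, leaving out a library gave 0 to 1 members called, with 0 for each nuclei library, since Cfd then fell below the filter. Leaving out libraries gave 0 to 1 for 1x2000g against 3x500g, with 1 (Cfd) only without 3x500g replicate 3, which left the reference at 0 so that nothing can be read from it, and 0 to 1 for sucrose against 3x500g, with 0 only without sucrose replicate 1. Plin1 in sucrose against 1x2000g turned from 0.59 to -0.22 without sucrose replicate 3 and was 6.94 without 1x2000g replicate 3, and none of these values passed the test. Of nuclei barcodes, 17 held at least 2 members, 10 at least 3, and 10 to 15 remained when 1 of the contributing libraries was left out, with 10 without male replicate 1. The choice by 4 other fat cell genes, made after the data were seen, gave 39. Where not stated, the cause was not tested. DESeq2 gave no adjusted p for members in 1x2000g against 3x500g or in sucrose against 1x2000g. Those values were treated as not called and are among the 85. Female nuclei against cells and the C57BL/6J cells gave no value for a member. No paired analysis was possible because the labels give no replicate numbers that tie libraries of different groups. Per the paper, fresh cells, stored cells and bulk suspensions of the first experiment came from the same dissociated kidneys. No test here compared those groups with each other. Depth limits Retn and Lep most, with 18 and 17 reads over 15 bulk libraries.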

Other observations

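The female intact libraries differed from the suspension in other tissues that surround or line the kidney. In this comparison 12.1% of all genes tested were called higher and 7.91% lower. The lists below are short, and no test of a list as a set was run. Of 3 mesothelium genes tested, 3 were called higher (edgeR), with log2 fold changes of 3.58 ± 0.552 for Msln (adjusted p 0.00165) and 3.49 ± 0.261 for Upk1b (2.1749e-05). Of 5 urothelium genes, 3 were called higher, led by the uroplakins Upk3a (3.44 ± 0.364, adjusted p 0.000177) and Upk2 (2.85 ± 0.317, adjusted p 0.000238), with Upk1a at 1.74. Mural cell and fibroblast genes gave 4 higher and 1 lower of 5 (Pdgfrb 1.16), and endothelial genes 4 higher of 5 (Pecam1 0.23, adjusted p 0.142). Of the mural cell and fibroblast genes, Col1a1, Col1a2 and Dcn are also in the stroma list. Genes of leukocytes were mostly lower in intact kidney. Of myeloid genes 5 of 6 were called lower and 1 higher (C1qa -1.09), of lymphoid genes 5 of 6 lower (Cd79a, of B cells, -3.25) and of neutrophil genes 3 of 3 tested lower (S100a8 -2.19 and S100a9 -2.27).

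Kidney epithelium was mixed. Proximal tubule genes gave 3 higher and 3 lower of 8, with Kap at 2.16 and Lrp2 at 0.99. Distal tubule genes gave 3 lower of 4 (Slc12a3 -0.53), principal cell genes 2 lower of 4 (Aqp2 -0.32, adjusted p 0.435) and podocyte genes 1 lower of 4 (Nphs1 -0.57). By the edgeR test 0 were called among 4 thick limb genes (Umod -0.05), 4 intercalated cell genes (Atp6v1g3 -0.29), 4 nerve genes and 7 skeletal muscle genes (Acta1 -0.33), where 1, 1, 0 and 4 genes had an unadjusted p under 0.05.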
